A study of Mus musculus with 8 samples.

Results

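The regions described here are stretches of the mouse genome next to protein-coding genes at which METTL14 was called in both libraries of one genotype and in neither library of the other. They were taken from 4 METTL14 peak lists of mouse embryonic stem cells. Peaks sharing at least 1 bp were merged into 8091 regions, of which 3878 lay within 2 kb of a start or end of a protein-coding gene (mm10 coordinates, RefSeq genes of GRCm38.p6) and are called boundary regions. Of these boundary regions, 91 (2.35%) were called in both Mettl3 CKO libraries and no Mettl3 control library, and 131 (3.38%) in both Mettl3 control libraries and no Mettl3 CKO library. Anywhere in the genome the same rule gave 141 CKO-only regions (1.74% of all merged regions) and 243 control-only regions (3%). The 222 boundary regions were chosen by their calls in these same 4 lists, so the calls are a description and carry no test of a genotype effect. Another 238 boundary regions were called in all 4 libraries.

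Per the labels, the cells were embryonic stem cells of strain C57BL/6 grown with serum, LIF and the inhibitors CHIR99021 (against GSK3) and PD0325901 (against MEK). A rabbit antibody against METTL14 was used in Mettl3 CKO cells and in Mettl3 control cells, with 2 libraries each, and a rabbit antibody against METTL3 in Mettl14 CKO cells and in Mettl14 control cells, also with 2 libraries each. The labels do not spell out CKO, do not describe how these cells were derived, and leave out whether the 2 libraries of each kind are separate cultures or clones, so the spread between libraries may be technical. Peak lists hold no measure of Mettl3 itself or of stem cell marker RNA, so the genotype and the cell type could not be checked. No library with a nonspecific antibody was analysed here.

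METTL3 and METTL14 pair up as the core of the m6A writer, the enzyme complex that adds N6-methyladenosine to RNA in the nucleus. METTL3 is the catalytic subunit, and METTL14 holds the RNA and stabilises its partner. In embryonic stem cells m6A is known for limiting the lifetime of transcripts of pluripotency factors, and both proteins can be recovered from chromatin, with gene starts among the sites. CUT&RUN, the assay used, brings micrococcal nuclease to an antibody on chromatin, and the short DNA fragments that are cut free are sequenced.

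Replicates 1 and 2 had 3922 and 1439 METTL14 peaks in Mettl3 CKO cells, against 3129 and 3546 in Mettl3 control cells. Peaks were 149 bp wide apart from single exceptions, and every peak had the same deposited score of 1, so no height can be compared. Read depth is unknown. The place of a peak in its list, as a percentage of the list with low values first, is used below to rank regions. What the authors' order means is not given in the sources used here.

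The DNA of a few regions is printed first, because letters show what the calls cover. These are the 250 bases before a gene start, 5′ to 3′ on the gene's strand, from RefSeq (GRCm38.p6), and the capitals mark the bases inside the called region. Regions in the first group were CKO-only. Jkamp encodes a JNK-associated membrane protein, Ing2 a reader of methylated histone H3, Pes1 a ribosome assembly factor, Brca1 a DNA repair protein and Rpl5 a protein of the large ribosomal subunit. The first 4 also had a control-only region a short way along the same promoter, and Rpl5 had no control peak nearby.
Jkamp, chr12:72085589-72085838, plus strand: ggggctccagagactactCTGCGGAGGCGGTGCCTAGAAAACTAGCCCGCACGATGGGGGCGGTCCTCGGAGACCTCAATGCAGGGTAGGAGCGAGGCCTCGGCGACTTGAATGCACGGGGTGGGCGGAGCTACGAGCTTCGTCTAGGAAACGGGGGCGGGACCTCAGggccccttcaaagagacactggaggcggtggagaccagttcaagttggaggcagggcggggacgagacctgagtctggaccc
Ing2, chr8:47675160-47675409, minus strand: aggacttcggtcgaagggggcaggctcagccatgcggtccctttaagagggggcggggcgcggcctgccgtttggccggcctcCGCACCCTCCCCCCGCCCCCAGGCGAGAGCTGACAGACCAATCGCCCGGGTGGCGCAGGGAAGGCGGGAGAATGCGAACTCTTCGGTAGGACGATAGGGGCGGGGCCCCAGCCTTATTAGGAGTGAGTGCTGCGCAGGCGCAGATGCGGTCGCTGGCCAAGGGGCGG
Pes1, chr11:3963725-3963974, plus strand: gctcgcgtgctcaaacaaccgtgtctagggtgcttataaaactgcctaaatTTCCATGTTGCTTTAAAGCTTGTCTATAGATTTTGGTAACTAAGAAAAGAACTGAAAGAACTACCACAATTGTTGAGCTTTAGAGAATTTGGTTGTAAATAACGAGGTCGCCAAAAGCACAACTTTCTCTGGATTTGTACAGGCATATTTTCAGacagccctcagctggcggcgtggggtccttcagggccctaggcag
Brca1, chr11:101551956-101552205, minus strand: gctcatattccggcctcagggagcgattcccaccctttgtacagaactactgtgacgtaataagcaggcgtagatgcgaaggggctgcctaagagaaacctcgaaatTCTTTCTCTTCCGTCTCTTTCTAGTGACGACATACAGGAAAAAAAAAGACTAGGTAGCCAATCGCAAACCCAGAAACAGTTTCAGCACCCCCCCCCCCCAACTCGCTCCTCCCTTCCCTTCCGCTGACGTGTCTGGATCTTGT
Rpl5, chr5:107900278-107900527, plus strand: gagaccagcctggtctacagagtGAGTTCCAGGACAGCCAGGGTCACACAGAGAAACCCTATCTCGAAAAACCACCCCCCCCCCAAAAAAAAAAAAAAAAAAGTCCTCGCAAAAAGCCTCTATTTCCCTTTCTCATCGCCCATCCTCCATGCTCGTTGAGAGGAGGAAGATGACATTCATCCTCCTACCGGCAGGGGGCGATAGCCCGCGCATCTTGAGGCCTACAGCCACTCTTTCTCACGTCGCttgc

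Regions in the second group were control-only. Rps26 encodes a protein of the small ribosomal subunit, Zfp78 a zinc finger protein, and Lhx8 a LIM homeodomain factor of the ventral forebrain.
Rps26, chr10:128626507-128626756, minus strand: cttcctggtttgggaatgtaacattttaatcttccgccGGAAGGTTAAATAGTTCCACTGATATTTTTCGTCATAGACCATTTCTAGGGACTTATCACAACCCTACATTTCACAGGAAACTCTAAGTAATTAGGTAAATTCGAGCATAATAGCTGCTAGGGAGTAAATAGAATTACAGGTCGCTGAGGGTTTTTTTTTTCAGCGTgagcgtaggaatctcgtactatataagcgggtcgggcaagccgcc
Zfp78, chr7:6363058-6363307, plus strand: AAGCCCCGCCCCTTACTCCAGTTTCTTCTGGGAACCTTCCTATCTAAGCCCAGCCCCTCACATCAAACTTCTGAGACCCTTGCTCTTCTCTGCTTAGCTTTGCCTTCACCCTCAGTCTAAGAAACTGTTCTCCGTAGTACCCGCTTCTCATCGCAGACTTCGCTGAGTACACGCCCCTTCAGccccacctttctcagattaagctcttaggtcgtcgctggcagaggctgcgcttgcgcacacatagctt
Lhx8, chr3:154330561-154330810, minus strand: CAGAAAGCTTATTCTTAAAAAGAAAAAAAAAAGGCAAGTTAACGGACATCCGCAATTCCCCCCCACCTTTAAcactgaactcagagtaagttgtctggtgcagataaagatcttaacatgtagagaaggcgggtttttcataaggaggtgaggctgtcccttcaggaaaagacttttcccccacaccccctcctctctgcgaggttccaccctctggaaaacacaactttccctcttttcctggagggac

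The capitals differ widely in composition within each set. Among the CKO-only regions the part shown had 66% G and C with 15 CpG at Jkamp, and 69.5% with 16 CpG at Ing2. It had 35.1% with 2 CpG at Pes1, 51.0% with 6 CpG at Brca1 and 52.5% with 10 CpG at Rpl5. Among the control-only regions it had 37.1% with 4 CpG at Rps26, 52.7% with 6 CpG at Zfp78 and 37.5% with 2 CpG at Lhx8. These genes were picked for printing after their calls were known.

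The first question was how far a region of one genotype lay from the calls of the other. A peak of the control libraries lay within 500 bp of 35 of the 91 CKO-only regions (38.5%, 95% Wilson interval 29.1 to 48.7%), and a peak of the CKO libraries within 500 bp of 50 of the 131 control-only regions (38.2%, 30.3 to 46.7%). Within 149 bp, the width of a peak, there was such a peak for 23 CKO-only regions (25.3%) and 38 control-only regions (29.0%). At the other end, 52 CKO-only regions and 73 control-only regions had none within 2 kb. The median distance was 12697 bp for CKO-only regions and 6385 bp for control-only regions, and the shortest was 3 bp in both sets. At 500 bp the intervals of both sets overlap. The same share, counted for boundary regions called in exactly 1 CKO and 1 control library, with the peaks of the libraries that did not call them, was 29.0% and 22.5% for pairs with CKO replicate 1 (control replicates 1 and 2) and 60.4% and 55.6% for pairs with CKO replicate 2. Both one-genotype sets lay within that range.

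**Figure D1:**
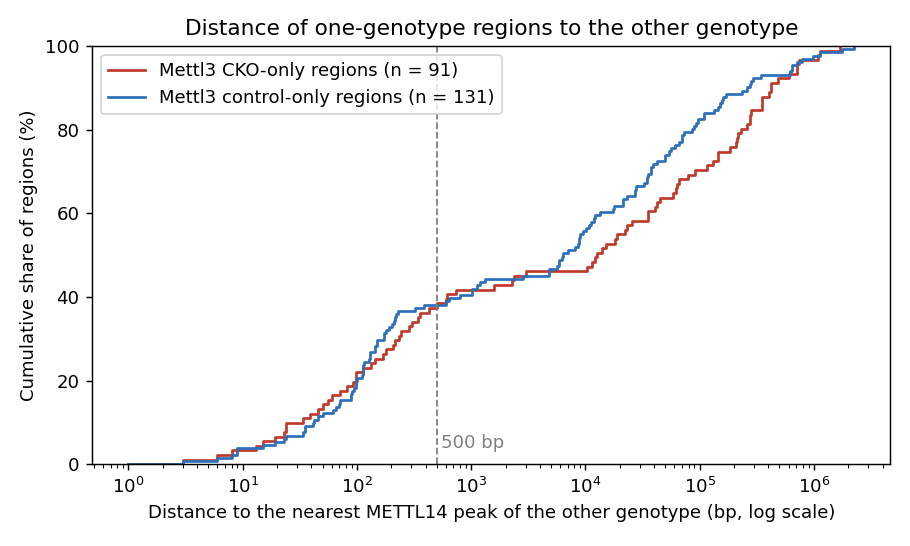
Cumulative share of Mettl3 CKO-only regions (red, n = 91) and Mettl3 control-only regions (blue, n = 131) against the distance to the nearest METTL14 peak of the other genotype (bp, log axis, edge to edge). The curves lie close together up to the dashed line at 500 bp, where they reach 38.5% and 38.2%, and run nearly flat past 2 kb before they climb again.

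Nearby calls came equally from both control libraries and unequally from the CKO libraries. Of the CKO-only regions, 27 had a peak of control replicate 1 and 27 a peak of control replicate 2 within 500 bp, with 19 near both. Of the control-only regions, 47 had a peak of CKO replicate 1 and 26 a peak of CKO replicate 2 within 500 bp, with 23 near both. CKO replicate 2 had the shortest list. With every list cut to that length, the shares with a nearby call were 33.8% of CKO-only and 33.3% of control-only regions.

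Calls shared by exactly 2 of the 4 libraries set a scale for these sets. CKO replicates 1 and 2 shared 91 boundary regions found nowhere else, and control replicates 1 and 2 shared 131. Across genotypes, CKO replicate 1 and control replicate 2 shared 253, and CKO replicate 1 and control replicate 1 shared 162. The shorter list of CKO replicate 2 shared 54 with control replicate 2 and 53 with control replicate 1. With every list shortened to the length of the shortest, there were 80 CKO-only and 69 control-only regions, so the order of the sets depends on list length. In the whole lists both mixed pairs with CKO replicate 1, the longest list, gave more exclusive regions than either genotype did. Both mixed pairs with CKO replicate 2, the shortest list, gave fewer. Of all boundary regions, 2521 were called in a single library, 744 in 2, 375 in 3 and 238 in all 4.

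Regions of one genotype stood later in their lists, at the median, than regions called in all 4. CKO-only regions had places with a median of 36.3% (0.918 to 99.7%) in CKO replicate 1 and 65.9% (2.36 to 100%) in CKO replicate 2. Control-only regions had a median of 42.7% (4.38 to 97.3%) in control replicate 1 and 41.0% (3.58 to 98.4%) in control replicate 2. Regions of all 4 libraries had medians of 17.8% and 37.6% in the CKO lists and 24.3% and 21.8% in the control lists. In both sets the members near a call of the other genotype stood earlier: the median of the mean place was 45.2% with such a peak within 500 bp and 59.9% without one for CKO-only regions, and 34.9% and 52.1% for control-only regions. These are descriptions, since calls and places come from the same lists. Places of regions called in exactly 1 CKO and 1 control library were not compared. Later places are thus not shown to be particular to regions of one genotype.

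**Figure D2:**
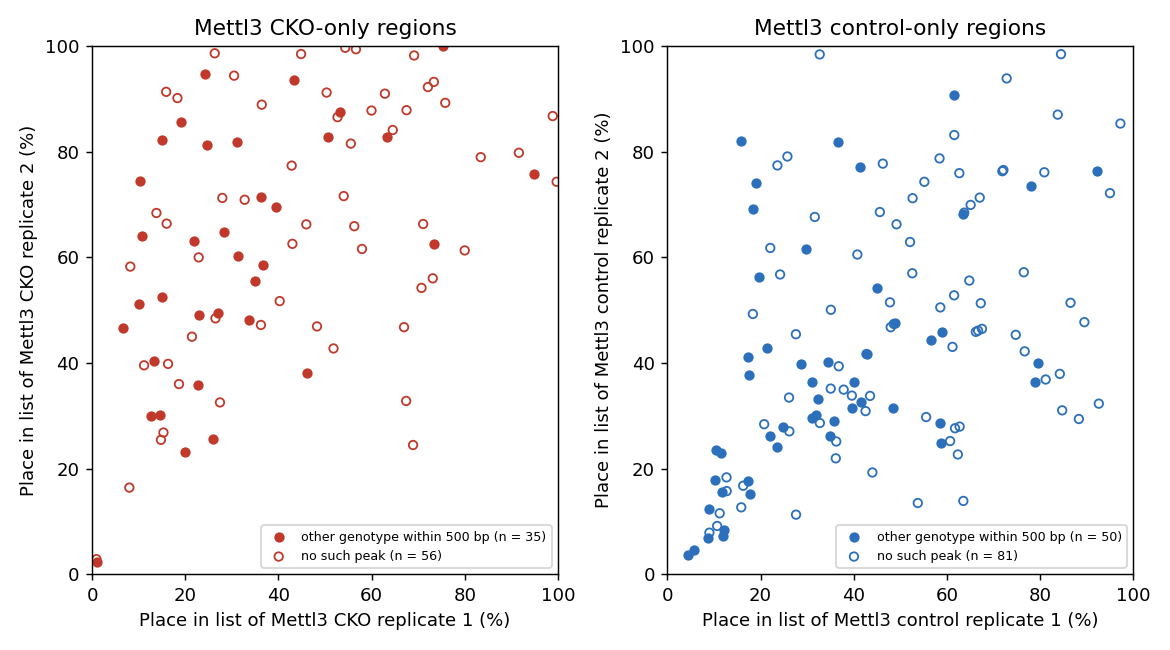
Place of each region in the 2 peak lists that called it (percent of the list, low values first), for Mettl3 CKO-only regions (left) and Mettl3 control-only regions (right). Filled points have a METTL14 peak of the other genotype within 500 bp (35 and 50 regions) and open points have none (56 and 81 regions). At the lower left, the earliest control-only regions are mostly filled.

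At the level of genes, the question was how many genes had calls of both genotypes. The CKO-only regions lay at boundaries of 116 genes (0.53% of 21900 protein-coding genes) and the control-only regions at 162 (0.74%), since 20 CKO-only and 30 control-only regions lay at more than 1 gene. The sets had 17 genes in common, 14.7% of the CKO-only genes and 10.5% of the control-only genes. Of the CKO-only genes, 56 (48.3%, 39.4 to 57.3%) had a peak of a control library somewhere at their own boundaries, 33 of them of both. Of the control-only genes, 76 (46.9%, 39.4 to 54.6%) had a peak of a CKO library there, 38 of them of both. This left 60 CKO-only genes and 86 control-only genes with no call of the other genotype at a boundary. For genes of regions called in exactly 1 CKO and 1 control library, the share with a peak of a library that did not call the region was 32.7% and 26.3% for pairs with CKO replicate 1 (control replicates 1 and 2) and 64.5% and 62.7% for pairs with CKO replicate 2, so the one-genotype shares lay between these.

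The 17 common genes came from 13 pairs of neighbouring regions, a CKO-only one and a control-only one. The gap between the regions of a pair was 46 bp at the median, at most 50 bp in 8 pairs and at most 149 bp in 11, with 6 bp as the lowest and 11994 bp as the highest. The genes were Relb, Fam90a1b and Apoo, Hoxc11, Ing2, Mtmr4 and Septin4, Brca1 and Nbr1, Ppm1b, Foxp2, Pes1, Jkamp and L3hypdh, Otx2, Dlx2, and Ccdc9. At these genes both genotypes had a replicated call, within the width of a peak of each other except at Dlx2 and Ccdc9.

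The closest pair was at Relb, which encodes an NF-kB subunit of the alternative pathway. Its CKO-only region was chr7:19628799-19628987, at places 6.65% and 46.6% in the CKO lists, and its control-only region chr7:19628603-19628793, at places 17.7% and 15.3% in the control lists. The regions were 6 bp apart. At Hoxc11, a posterior homeobox gene, the CKO-only region chr15:102954418-102954652 (places 12.7% and 29.9%) lay 15 bp from the control-only region chr15:102954667-102954944 (places 11.9% and 7.19%). All 4 libraries thus had a peak at this boundary of the gene.

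Ing2 shows such a pair around a start. The CKO-only region chr8:47675155-47675326 was centred 81 bp upstream of the start (a signed distance of -81 bp) and stood at 53.2% and 87.5% of the CKO lists. The control-only region chr8:47674986-47675136 was centred 98 bp downstream and stood at 10.2% and 17.9% of the control lists. In the printed promoter the capitals reach the last base before the start.

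At Jkamp, which shares a divergent promoter with L3hypdh, the centres were at -158 bp in the CKO-only region chr12:72085607-72085756 and at 92 bp in the control-only region chr12:72085857-72086005. The regions stood at 28.3% and 64.8% of the CKO lists and at 79.0% and 36.3% of the control lists. At Fam90a1b the centres were at -38 bp in the CKO-only region and 148 bp in the control-only region.

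Brca1 and Nbr1, which encodes an autophagy receptor, also lie head to head. The CKO-only region chr11:101551930-101552098 was centred 59 bp upstream of its nearest start and stood at 14.9% and 52.5% of the CKO lists. The control-only region chr11:101552122-101552321, 24 bp away, was centred 114 bp downstream of its own nearest start, which is a different one, and stood at 61.5% and 90.8% of the control lists. Pes1 departs from the flanking arrangement, with both centres upstream, at -123 bp for the CKO-only region chr11:3963776-3963929 and -386 bp for the control-only region chr11:3963501-3963678. Dlx2, a homeobox gene of forebrain interneurons, had both downstream, at 980 bp for the CKO-only region chr2:71545689-71545860 and 83 bp for the control-only region chr2:71546597-71546745.

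In 8 pairs both regions had a start within 2 kb, and in 5 of these the CKO-only region was upstream and the control-only region downstream. Counting only the 5 pairs whose regions share their nearest start, the number was 3 (Fam90a1b, Ing2 and Jkamp). The pair at Otx2, a homeobox factor of the epiblast and anterior brain, lay 112 bp apart near the gene end. At Ccdc9 the pair belonged to different boundaries of the gene.

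**Figure D3:**
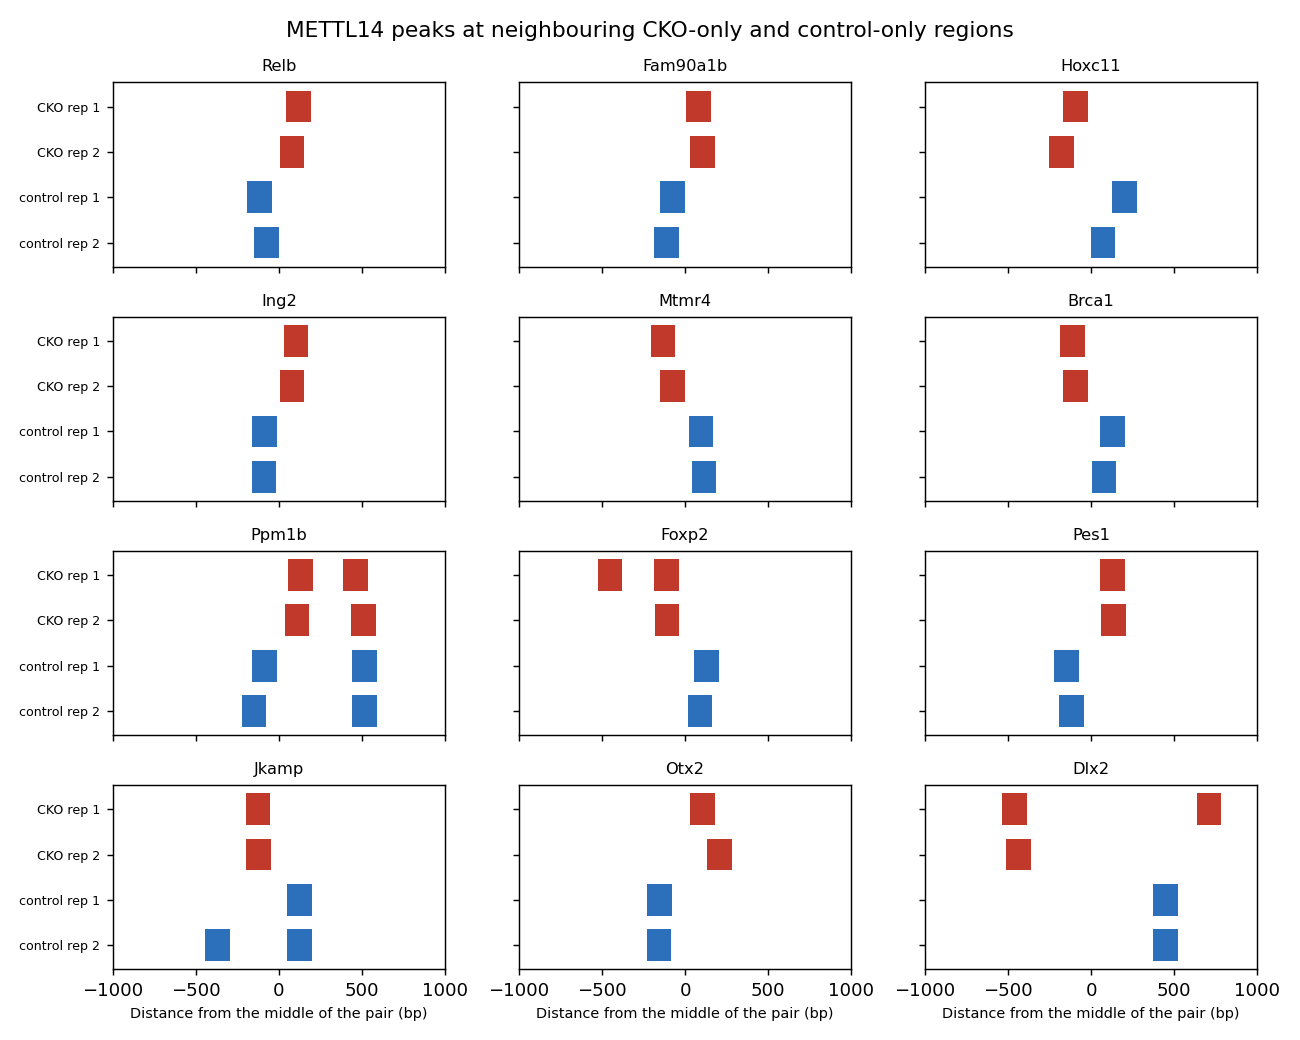
Deposited METTL14 peaks of the Mettl3 CKO libraries (red) and the Mettl3 control libraries (blue) at each neighbouring pair except Ccdc9, by distance from the middle of the pair along the reference (bp, rising coordinate to the right). Peaks of a genotype's replicates lie side by side with those of the other, with gaps of at most 149 bp in 11 pairs and 737 bp at Dlx2, and the other peaks drawn belong to other regions.

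The place of the regions relative to gene starts could be read where the promoter table gives the strand. Of 63 CKO-only regions with a determined boundary 58 (92.1%) were at a start, against 94 of 105 control-only regions (89.5%). The share was 93.2% in regions of all 4 libraries and 89.3% in all boundary regions, so both sets were near the background. For 28 CKO-only and 26 control-only regions the nearest boundary could not be assigned. These labels used gene coordinates, whereas centres were measured from the starts in the promoter table. The regions counted next are therefore not all the same ones. Among regions with such a start within 2 kb, 20 of 58 CKO-only regions (34.5%, 23.6 to 47.3%) and 49 of 95 control-only regions (51.6%, 41.7 to 61.4%) were centred downstream of it. The shares were 35.3% in the 184 such regions of all 4 libraries and 38.8% in all 2762 such boundary regions. The median centre was at -134 bp in CKO-only regions and 51 bp in control-only regions. Within 300 bp of the start lay 40 of the 58 (69.0%) and 64 of the 95 (67.4%). That share was 72.3% in regions of all 4 libraries and 67.0% in all boundary regions.

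The side was also counted by distance to calls of the other genotype. Without a peak of the other genotype within 500 bp, 15 of 40 CKO-only regions and 31 of 53 control-only regions were downstream, with median centres at -131 bp and 91 bp. With one, 5 of 18 CKO-only regions and 18 of 42 control-only regions were, with medians of -140.5 bp and -149.5 bp. Over all regions with a start within 2 kb, the intervals of the CKO-only and control-only shares overlap.

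**Figure D4:**
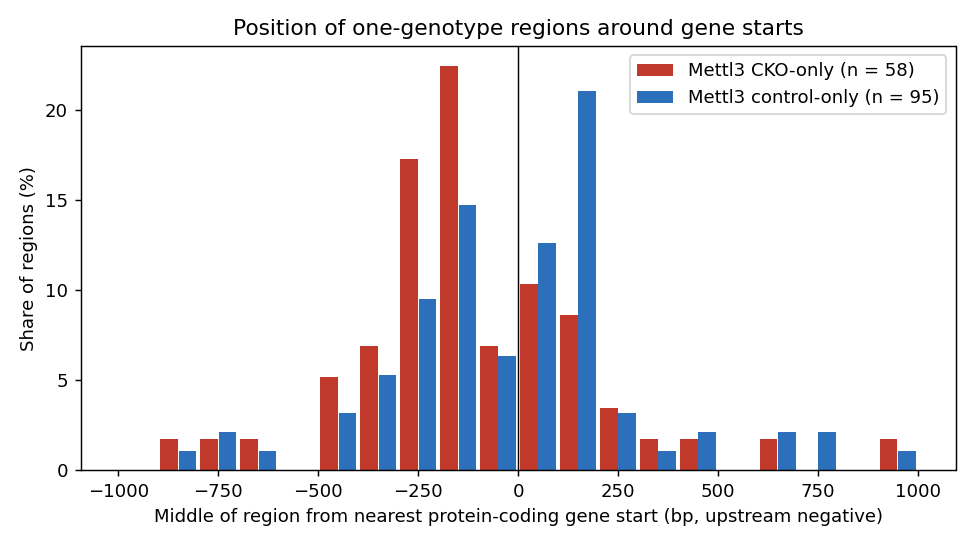
Distance of region centres from the nearest gene start (bp, negative upstream), as the share of regions per 100 bp bin, for Mettl3 CKO-only regions (red, n = 58) and Mettl3 control-only regions (blue, n = 95); regions over 1 kb from a start are counted in n and not drawn. The CKO-only regions centre upstream, with a median of -134 bp, and the control-only regions spread across the start, with a median of 51 bp.

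The same side was counted over all peaks of each library, a count chosen after the difference between the sets had been seen. Downstream were 38.0% and 36.6% of peaks in the CKO libraries (658 of 1733 and 240 of 656), against 42.1% and 41.5% in the control libraries (469 of 1115 and 587 of 1413). The CKO libraries were both below the control libraries. The difference was -4.53 percentage points, and an exact permutation test over the 4 libraries (two-sided) gave p = 0.333, the smallest p that 2 libraries against 2 allow. These libraries include the peaks of the member regions, so the count is not independent of them. The share of all METTL14 peaks lying at gene boundaries was 53.3% and 57.0% in the CKO libraries and 45.3% and 49.5% in the control libraries, with means of 55.2 ± 2.58% and 47.4 ± 2.99% (SD, n = 2 each; exact permutation p = 0.333, again the smallest). The difference was 7.76 percentage points, and 3.68 at equal list lengths.

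Among the gene lists, developmental transcription factors, genes known as Polycomb targets in stem cells, held most listed names. They made up 6 of the 116 CKO-only genes (5.17%) and 11 of the 162 control-only genes (6.79%). They were 7.05% of the genes of regions called in all 4 libraries and 3.52% of all 3526 genes with a boundary region. Of the 167 listed genes, 98 and 63 had a boundary peak in the CKO libraries and 87 and 95 in the control libraries.

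The CKO-only members of that list were Hoxc11, Dlx2, Gsx1, Six3, Hoxc5 and Otx2. Hox genes pattern the body axis, Gsx1 the ventral telencephalon and hypothalamus, and Six3 the eye and forebrain. The Gsx1 region chr5:147188676-147188867 stood at 16.3% and 39.8% of the CKO lists, 2374 bp from the nearest control peak. The Six3 region chr17:85625119-85625273, near the gene end, stood at 22.8% and 35.8%, 71 bp from one. The Hoxc5 region chr15:103015734-103015897 stood at 26.5% and 48.4%, 1591 bp from one. All 6 genes also had a peak of a control library at a boundary.

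The control-only members were Lhx8, Hoxc11, Hoxb6, Dlx2, Lhx1, Hoxc9, Dlx1, Nkx2-2, Otx2, Neurog2 and Foxf1. Lhx8 had 2 control-only regions, chr3:154329865-154330013 at places 8.76% and 6.88% and chr3:154330739-154330910 at 8.98% and 12.3%. The nearest CKO peaks were 89 bp and 41 bp away. Lhx1, a LIM homeobox gene of the head organiser and kidney, had chr11:84525787-84525958 at 11.8% and 15.6%, 35 bp from a peak of CKO replicate 1. Nkx2-2, a factor of the ventral neural tube and pancreas, had chr2:147193650-147193853 at 22.1% and 26.2%, 9 bp from a peak of CKO replicate 1. Hoxc9 had chr15:102976786-102976937 at 15.9% and 12.7%, 1015 bp from a CKO peak. Dlx1, the neighbour of Dlx2, had chr2:71529469-71529663 at 11.4% and 23.0%, 143 bp from one.

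A call of the other genotype lay within 2 kb of most regions of this list. Within 2 kb there was one at 5 of 6 CKO-only regions and 11 of 12 control-only regions, and within 500 bp at 3 and 9. The median distances were 424.5 bp and 111.5 bp. Regions at other genes had one within 2 kb at 34 of 85 in the CKO-only set and 47 of 119 in the control-only set. The exception in the control-only list was Foxf1, a forkhead factor of lung and gut mesenchyme. Its region chr8:121083375-121083524 stood at 36.1% and 21.9% of the control lists, and the nearest CKO peak was 32641 bp away. Neurog2 and Foxf1 were named after their values were seen. The list is not complete: the regions at other genes include further developmental factors, such as Sox21, Pax1, Foxb2 and Fezf1. The nearest call of the other genotype was 716854 bp, 5832 bp, 39 bp and 1116 bp from these, so the counts hold for the listed genes only.

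**Figure D5:**
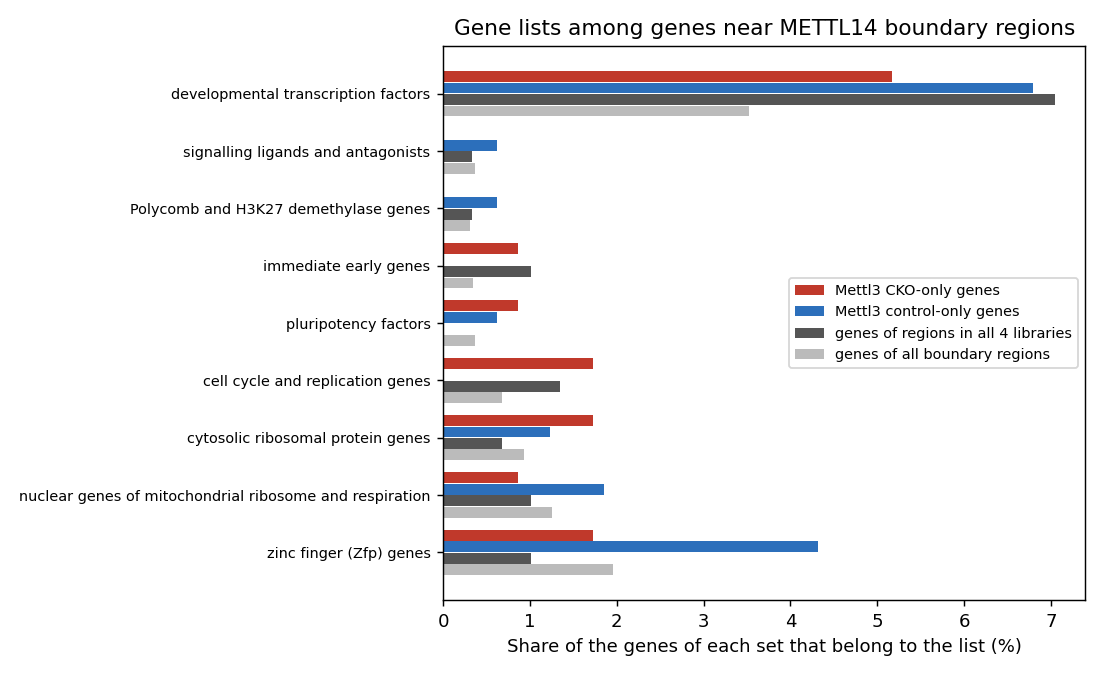
Share of genes (percent) that belong to each gene list, for genes of Mettl3 CKO-only regions, genes of Mettl3 control-only regions, genes of regions in all 4 METTL14 libraries and all genes with a boundary region. Developmental transcription factors form the longest bars, at 5.17% of CKO-only, 6.79% of control-only, 7.05% of all-library and 3.52% of all boundary genes.

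Other lists held few members, and they are given with their share of all 3526 genes with a boundary region. Zinc finger genes of the Zfp series numbered 2 in the CKO-only set (Zfp521 and Zfp524) and 7 in the control-only set (Zfp503, Zfp619, Zfp784, Zfp580, Zfp78, Zfp638 and Zfp978), with 3 among genes of all 4 libraries and 69 among all boundary genes. These are 1.72% of CKO-only and 4.32% of control-only genes, against 1.96% of all boundary genes. Zfp784 and Zfp580 share a single region, chr7:5038229-5038388. Both CKO-only members lay within 60 bp of a control peak. Of the control-only members, Zfp78 had CKO peaks 135 bp and 115 bp away, whereas the nearest was 133928 bp from Zfp503 and 34599 bp from Zfp619.

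Cytosolic ribosomal protein genes gave Rps29 and Rpl5 in the CKO-only set and Rpl41 and Rps26 in the control-only set, of 33 with any boundary region (1.72% of CKO-only and 1.23% of control-only genes, against 0.936% of all boundary genes). The Rps29 region had control peaks 169 bp and 183 bp away. Rpl5 (chr5:107900301-107900523, places 73.1% and 56.0% of the CKO lists) was 58893 bp from the nearest control peak. Rps26 (chr10:128626552-128626718, places 61.2% and 43.0% of the control lists) was 69952 bp from the nearest CKO peak, and Rpl41 21296 bp. At Rpl5, Rpl41 and Rps26 no library of the other genotype had a peak at a boundary.

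Nuclear genes for mitochondrial ribosomes and respiration numbered 1 in the CKO-only set (Mrpl10) and 3 in the control-only set (Ndufaf3, Mrpl16 and Atp5a1), of 44 with a boundary region (0.862% and 1.85%, against 1.25% of all boundary genes). Cell cycle genes numbered 2 in the CKO-only set (1.72%) and 0 in the control-only set, of 24 with a boundary region (0.681% of all boundary genes). With counts this low, no contrast between the sets is read from them. The CKO-only ones were Ccnd2, which encodes cyclin D2, and Cdc25a, the phosphatase that activates cyclin-dependent kinases at S phase entry. The Cdc25a region chr9:109875085-109875234 stood at 27.9% and 71.2% of the CKO lists, 406010 bp from the nearest control peak. The immediate early list (0.340% of all boundary genes) gave Fosb in the CKO-only set, 93 bp from a control peak. The control-only set held Wnt6, a ligand, and Phf1, a Polycomb cofactor, whose regions were 69988 bp and 89672 bp from the nearest CKO peak. The Wnt6 region lay 742 bp from the gene end. The Phf1 region lay 1605 bp from the end of Phf1 and 215 bp from the start of Cuta, its nearest gene. The ligand and Polycomb lists made up 0.369% and 0.312% of all boundary genes. Of the pluripotency list (0.369% of all boundary genes) Otx2 alone was present, in both sets. No gene of the m6A, splicing, histone or olfactory receptor lists was in either set, where 10, 19, 43 and 1 had a boundary region. These are 0.284%, 0.539%, 1.22% and 0.0284% of all boundary genes, so few or none would be in sets of this size, and nothing is read from their absence.

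The earliest CKO-only regions lay on the mitochondrial genome, at ND4 (chrM:11131-11306, places 0.943% and 2.36%) and ND1 (chrM:3482-3674, places 0.918% and 2.85%), which encode subunits of respiratory complex I. A control peak lay 13 bp from the ND4 region and 615 bp from the ND1 region. Genes lie close together there, so these 2 regions alone brought ND4, ND5, ND4L, ND3, COX3, ND1, ND2 and COX1 into the CKO-only genes. On chromosomes 1 to 19 and X there were 89 CKO-only regions and 131 control-only regions. The next CKO-only region was at Sox21, a SOX family transcription factor of neural progenitors, with chr14:118231160-118231326 at 7.98% and 16.4% of the CKO lists. The nearest control peak was 716854 bp away. Ccnd2 had chr6:127152664-127152857 at 14.8% and 25.4%, with control peaks 10100 bp and 2274 bp away.

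Lef1, a nuclear effector of Wnt signalling, had chr3:131110278-131110462 at 15.3% and 26.8% of the CKO lists, 597 bp from a control peak. Tpst2, a tyrosine sulfating enzyme, had chr5:112276398-112276575 at 11.1% and 39.5%, 276119 bp from the nearest control peak. The remaining 3 of the 10 earliest beside Hoxc11 were at Ang (which lies with Rnase4, both secreted ribonucleases), Foxb2, a forkhead gene, and Prdm1, a repressor needed for germ cell fate. Control peaks lay 56 bp, 39 bp and 82 bp from them. Of these 10 regions, those at Sox21, Ccnd2 and Tpst2 had no control call within 2 kb of a boundary of the gene.

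The earliest control-only regions included Tmem267 (chr13:119609501-119609679, places 4.38% and 3.58% of the control lists) and Elobl (places 5.69% and 4.60%), with CKO peaks 192 bp and 151 bp away. Both Lhx8 regions, Hoxc11, Dlx2 and Lhx1 were also among these 10. Fezf1, a zinc finger repressor of the forebrain, had chr6:23249821-23249999 at 9.01% and 7.87%, with the nearest CKO peak 1116 bp away. Hoxb6 had chr11:96300567-96300746 at 10.7% and 9.14%, with CKO peaks 2577 bp and 1322 bp away. Ctc1, of the CST complex at telomeres, had chr11:69037563-69037712 at 11.2% and 11.5%, with CKO peaks 2821 bp and 3416 bp away. Fezf1 and Ctc1 had no CKO call within 2 kb of a boundary of the gene.

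Regions whose genes had no call of the other genotype within 2 kb of a start or end numbered 48 of 91 in the CKO-only set and 68 of 131 in the control-only set. Calls farther from the boundaries, also those inside genes, were not counted here. The nearest peak of the other genotype was then 145368 bp away at the median for the CKO-only set and 51821 bp for the control-only set, and the median of the mean place was 61.7% and 53.3% of the lists. Counted by gene, these were 60 of 116 and 86 of 162. For regions called in exactly 1 CKO and 1 control library, the genes with no peak of the other libraries at a boundary were 132 of 196 and 235 of 319 with CKO replicate 1. They were 22 of 62 and 25 of 67 with CKO replicate 2, so the one-genotype sets lay between these. The earliest CKO-only ones after Sox21, Ccnd2 and Tpst2 were Tex261, Stx5a, Eif5a, Ssu72, Cul3, Hps1 and Pcnt. They include a Golgi SNARE (Stx5a), a translation factor (Eif5a), a phosphatase of RNA polymerase II (Ssu72) and a ubiquitin ligase scaffold (Cul3). The earliest control-only ones after Fezf1 and Ctc1 were Zfp503, Tsc22d2, Ctps, Cttnbp2nl, Zfp619, Foxf1, Zfp784 and Paxip1. Ctps encodes CTP synthase, and Paxip1 a subunit of histone H3K4 methyltransferase complexes. These names were taken after their values were seen.

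The regions nearest to the 2 kb limit show what it kept and dropped. A CKO-only region just inside it was at Sox21 (1907 bp), and those just outside were at Nkx2-2 (2257 bp) and Ing1 (2416 bp). The control-only regions just inside were at Otx2 (1756 bp) and Obsl1 (1766 bp), and those just outside at Gm40363 (2022 bp) and Ankrd17 (2186 bp).

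METTL3 calls, which the rule did not use, were rare at these regions. The METTL3 lists held 242 and 344 peaks in Mettl14 CKO cells and 353 and 341 in Mettl14 control cells. A METTL3 peak of any of these 4 libraries overlapped 2 of 91 CKO-only regions (2.20%, 0.605 to 7.66%) and 3 of 131 control-only regions (2.29%, 0.782 to 6.52%). It overlapped 7 of 238 regions of all 4 METTL14 libraries (2.94%) and 36 of all 3878 boundary regions (0.928%). The CKO-only ones were at Relb and ND1, and the control-only ones at Tmem267, Relb and LOC100504180. Both Relb regions were overlapped by both METTL3 libraries of Mettl14 CKO cells, while the nearest METTL3 peak of Mettl14 control cells was 281732 bp from the CKO-only region and 281926 bp from the control-only region. Antibody and cell line differ between the METTL14 and METTL3 libraries.

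The promoters touched by the regions were compared by their letters. RefSeq windows from 250 bases before to 50 bases after a start were touched by 41 CKO-only regions (50 windows) and 55 control-only regions (65 windows). The median G and C content was 65.3% in CKO-only windows and 62.7% in control-only windows, 63% in all windows of boundary regions and 56.3% in all 21263 windows. The median number of CpG was 25.5 and 23, with 24 at all boundary regions and 13 in all windows. Both sets were thus near other METTL14 boundary regions in composition.

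Motifs were searched as exact letters on both strands. The GC box GGGCGG was in 80% of CKO-only and 75.4% of control-only windows (74.2% at all boundary regions, 46.2% of all windows), and CCAAT in 36% and 47.7% (45.8% and 38.2%). The E-box CACGTG was in 14% and 18.5% (14.5% and 7.84%), and the ETS core CCGGAAG in 14% and 13.8% (18.6% and 11.6%). The NRF1 core GCATGCG was in 6% and 6.15% (7.35% and 4.44%), and the CRE TGACGTC in 8% and 13.8% (9.49% and 3.84%). The YY1 core AAGATGG was in 4% and 9.23% (8.31% and 6.24%). TATAAA was in 8 of 50 CKO-only windows (16%) and 2 of 65 control-only windows (3.08%), against 6.43% at all boundary regions and 12.6% of all windows. Windows of one region can overlap, and a match describes letters only.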

How the data were processed

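METTL14 and METTL3 were profiled by CUT&RUN in 8 libraries, 2 per group. Tools listed in the submitters' processing notes, whose roles are not given there, are Bowtie2 2.4.1, CASAVA, HOMER, SAMtools and Trimmomatic 0.38; the build is mm10. How peaks were thresholded is not given in the sources used here. Replicates were not pooled, and the deposited score was 1 for every peak.

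Peaks were merged on at least 1 bp. Distances are edge to edge. Gene boundaries came from the RefSeq table of GRCm38.p6 (21900 protein-coding genes). Strand came from the RefSeq promoter table, which covered 17492 of these genes. The labels start and end used this strand with the gene coordinates. Signed distances used the starts in the promoter table, which can differ from the gene coordinates. The list order ranked the regions, since scores were equal. Shares carry 95% Wilson intervals, which cover counting error only. Libraries were compared by an exact permutation test (SciPy 1.17.1, pandas 2.3.3, numpy 2.4.6, Python 3.11.15), and the code was tested on simulated peaks.

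Named genes were those of the 10 earliest regions per set, up to 8 members per gene list and set, genes in both sets, regions with a METTL3 overlap, and regions beside the 2 kb limit. The 13 gene lists, the members and the tests were chosen with earlier results of these data known. Alternatives were other windows, starts only, 50% reciprocal overlap, peaks widened by 500 bp, equal list lengths, the first part of each list, chromosomes 1 to 19 and X, a replicate block and leaving out each library. Exons and introns were not analysed here. One gene that the naming rule selects is not reported.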

Additional observations from a re-analysis of the deposited data

How the results depend on the processing

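With every list shortened to the length of the shortest, 80 CKO-only regions, against 91, and 69 control-only regions, against 131, were found, so that the order of the sets turned round. Of the original regions, 48 of 91 CKO-only and 48 of 131 control-only ones shared at least 1 bp with a region of the same set found then. With the first 50% of each list there were 34 CKO-only and 88 control-only regions, and 24 and 58 of the original ones were found again. With peaks widened by 500 bp there were 77 CKO-only and 114 control-only regions, and 53 and 76 of the original ones were found again. Under a 50% reciprocal overlap 50% of CKO-only regions had a control peak within 500 bp. Leaving out 1 library in turn gave 156 to 1118 CKO-only and 177 to 909 control-only regions, since a set then rests on fewer lists. The CKO-only number was 1118 without CKO replicate 2, 285 without CKO replicate 1, 156 without control replicate 1 and 181 without control replicate 2. The control-only number was 307 without CKO replicate 1, 177 without CKO replicate 2, 909 without control replicate 1 and 685 without control replicate 2. Leaving out a library moved the share with a nearby call of the other genotype over 25.5 to 40.7% for CKO-only and 14.3 (without CKO replicate 1) to 43.5% for control-only regions, and the developmental factors over 12 to 57 CKO-only and 18 to 62 control-only genes. The difference in boundary share ran from 5.64 to 9.88 points without single libraries and was 3.68 points at equal list lengths, and the downstream share from -5.22 to -3.83 points; neither changed direction.

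The replicate numbers are shared between groups. Deviations of same-numbered METTL14 libraries had a correlation of 0.013 over 3878 boundary regions. Of these regions 2521 were called in a single library, where the replicates of the other genotype cannot differ, which holds the value near 0. It therefore cannot decide whether same-numbered libraries are paired, and only 2 pairs exist. With the replicate number as a block, the differences were 7.76 and -4.53 points with p = 0.5 in an exact permutation test, the smallest p it allows. Read depth is unknown, so a region missing from a list may have fallen short of the threshold there.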
